A study of Mus musculus with 11 samples.

Results

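Mice without Nrf3 were compared with control mice across injured femoral and carotid arteries at once, for the change in RNA level that both vessels share. All 11 libraries of the series entered this comparison, 5 from Nrf3-/- arteries and 6 from control arteries, and 21343 of 48897 genes passed the filter on low counts. The femoral artery had been injured with a wire, with 3 Nrf3-/- samples and 3 samples from flox mice, which carry floxed alleles and serve as controls. The carotid artery had been ligated, with 2 Nrf3-/- samples and 3 flox samples. Tissue was taken on day 7 after injury in every group, and no uninjured artery was analysed here. The labels give neither the Cre driver nor the part of the gene that was removed, and no strain, age or hour of collection. Nothing in them ties replicates to separate animals or says if 1 mouse gave both vessels, so p-values reflect only the spread between these samples, which may be technical. Since no strain is given, a difference in genetic background between Nrf3-/- and flox mice was not tested.

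Nrf3, encoded by Nfe2l3, belongs to the cap'n'collar transcription factors, which pair with small Maf proteins and bind antioxidant response elements. The protein is held in the membrane of the endoplasmic reticulum until it is cleaved and released to the nucleus. After injury of an artery, smooth muscle cells of the wall lose contractile proteins, divide and lay down matrix as a neointima, while leukocytes enter the wall. The series title places Trim5 beside Nrf3 in this setting.

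Library totals lay between 43698644 and 49671909 counts in the knockouts and between 51067573 and 55998563 in the controls, so the ranges did not overlap. Levels are given as CPM, which are counts scaled to library size by the trimmed mean of M-values. Vessel separated the libraries on the first principal component, with 32.5% of the variance. Genotype separated them on the second, with 21.3% of the variance and scores of −63.3 to −15.3 in the knockouts and 12.8 to 57.7 in the controls. The arterial label held: Acta2, the actin of smooth muscle, stood at 2863 CPM or more in each library, Myh11, its myosin, at 1132 CPM or more, and Pecam1, a surface protein of endothelium, at 351 CPM or more. Skeletal muscle RNA was also present and varied. Its 20 marker genes summed to 258.4 to 2250 CPM in femoral knockout libraries, 821.9 to 7496 CPM in femoral controls, 28.6 to 705.8 CPM in carotid knockouts and 52.9 to 975 CPM in carotid controls. Their median log2 change was −1.30 and none was called.

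The targeted gene was low in each knockout library. Nfe2l3 stood at 0.233, 0.0451 and 0 CPM in femoral knockouts against 0.908, 1.65 and 0.680 CPM in femoral controls, and at 0.185 and 0.157 CPM in carotid knockouts against 1.11, 1.42 and 1.55 CPM in carotid controls. No knockout library reached a control library of its vessel. Across both vessels Nfe2l3 fell by 3.25 ± 0.56 on the log2 scale (SE), a 9.50-fold lower level. Adjusted p-values are Benjamini-Hochberg values over all 21343 genes from edgeR's quasi-likelihood test of genotype, with vessel as a further term. For Nfe2l3 the edgeR adjusted p was 0.0087. It stayed under 0.05 when any 1 of the 11 libraries was left out. Of the other 11 tested members of the list of CNC factors and their Maf partners, none was called.

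Trim5, a cytoplasmic restriction factor of retroviruses (NCBI gene 667823, GRCm38 chromosome 7, 104263386 to 104288415, minus strand), was also low in the knockouts. Its level was 0.444, 0.406 and 0.394 CPM in femoral knockouts against 9.24, 6.63 and 6.78 CPM in femoral controls, and 0.330 and 1.37 CPM in carotid knockouts against 7.80, 8.25 and 7.65 CPM in carotid controls. The fall was 3.72 ± 0.33 on the log2 scale, or 13.2-fold (edgeR adjusted p 0.000122), and held in all 11 omissions of a library. Other genes of the same cluster on chromosome 7 went in both directions. Trim12a fell by 5.0 ± 0.85 (edgeR adjusted p 0.00783), with 0.0423, 0 and 0.435 CPM in femoral knockouts, 20.1, 16.3 and 17.5 CPM in femoral controls, 0.0412 and 2.58 CPM in carotid knockouts, and 17.3, 19.4 and 14.1 CPM in carotid controls. Trim34a fell by 2.01 and Trim30d by 1.56, while Trim34b rose by 4.71 and Trim12c by 0.76. Of 21 genes of this cluster and of the wider TRIM family, 5 rose and 5 fell. With the level of skeletal muscle genes as a covariate 3 of them rose. The count of rises was also 3 without carotid knockout replicate 1, femoral knockout replicate 1 or 2, femoral control replicate 2, or carotid control replicate 2 or 3. These paralogs are nearly identical in places, so the division of reads among them is uncertain.

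Across both vessels 864 genes rose and 388 fell with an adjusted p below 0.05 by edgeR. These are 4.05% and 1.82% of the genes tested, or 5.87% in either direction, and the median log2 change of all genes was −0.02. At least 2-fold changes made up 450 of the rises and 90 of the falls. Among the 864 rises, 667 (77.2%) had every knockout library above every control library in each vessel, and among the 388 falls, 317 (81.7%) had every knockout library below. Over all genes tested, 7.89% had libraries apart in this way, 4.61% with the knockouts higher and 3.28% with the knockouts lower. Calls and separation come from the same libraries, so the higher shares among called genes are no separate support for the calls. Leaving out 1 library changed the size of the call. Rises and falls numbered 387 and 144 without femoral control replicate 2, 402 and 146 without carotid knockout replicate 1, 419 and 159 without femoral knockout replicate 1, 449 and 169 without femoral knockout replicate 2, 481 and 253 without femoral control replicate 3, 540 and 193 without carotid control replicate 2, 558 and 272 without carotid control replicate 3, and 580 and 194 without femoral control replicate 1. They were 1009 and 333, 1019 and 382, and 1208 and 513 without carotid knockout replicate 2, femoral knockout replicate 3 and carotid control replicate 1, in that order. With the level of skeletal muscle genes as a covariate, 415 rose and 168 fell; the part of that tissue in the result was not tested further.

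**Figure D1:**
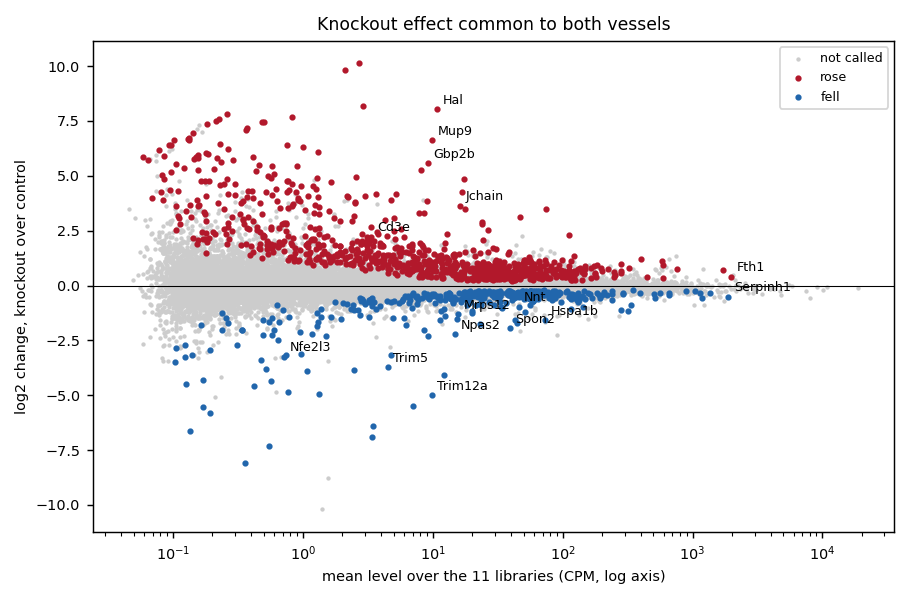
Log2 change of knockout over control common to both vessels (vertical axis) against the mean level over 11 libraries in CPM (horizontal, log axis), 1 point for each of 21343 genes. The 864 rises are red and the 388 falls blue; most of the rises beyond 5 on the log2 scale lie at low levels, and Hal, Mup9 and Gbp2b are the labelled ones at about 10 CPM.

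Genes of T cells and natural killer cells were higher in the knockout arteries of both vessels. Of 22 list members 21 rose and none fell, with a median of 1.77, and all 22 had positive changes. The T cell receptor chain Cd3e stood at 6.30, 5.46 and 6.34 CPM in femoral knockouts against 2.44, 1.5 and 1.18 CPM in femoral controls, and at 5.44 and 5.89 CPM in carotid knockouts against 0.776, 0.738 and 1.04 CPM in carotid controls. Every knockout library was above every control library, and the rise was 2.22 ± 0.23, or 4.67-fold (edgeR adjusted p 0.000384). The list's summed level was 133.0 to 186.5 CPM in femoral knockouts, 42.1 to 76.9 CPM in femoral controls, 129.8 to 137.5 CPM in carotid knockouts and 22.3 to 41.2 CPM in carotid controls. In bulk tissue, more cells of a type and more RNA per cell cannot be told apart.

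Signalling proteins behind the receptor rose with it, namely the adaptor Lat (2.11), the kinases Zap70 (1.68) and Lck (1.62), and Themis (2.59), which acts in T cell development. The coreceptor chains Cd8a and Cd8b1 rose by 2.57 and 2.34. Products of cytotoxic cells rose too, with granzyme B, Gzmb, at 9.13, 6.56 and 9.10 CPM in femoral knockouts against 2.31, 0.834 and 0.901 CPM in femoral controls. In the carotid artery Gzmb stood at 5.11 and 4.11 CPM in knockouts against 1.38, 0.435 and 1.15 CPM in controls, so its libraries did not overlap either. Interferon gamma, Ifng, rose by 3.61 ± 0.70 (edgeR adjusted p 0.0145). Its level was 3.38, 3.72 and 0.912 CPM in femoral knockouts against 0.0946, 0.264 and 0.0368 CPM in femoral controls. In the carotid artery it stayed low, at 0.268 and 0.215 CPM in knockouts against 0.0776, 0 and 0.0729 CPM in controls. The list kept 16 to 21 rises over the 11 omissions, lowest without carotid knockout replicate 1 or femoral knockout replicate 1, and 17 with the skeletal muscle covariate. Of 8 genes of the GIMAP family, GTPases of lymphocytes chosen as a list after values were seen, 4 rose and none fell, with Gimap3 up by 1.77. The GIMAP count was 1 without carotid knockout replicate 1, femoral knockout replicate 1 or 2, femoral control replicate 2 or 3 or carotid control replicate 2, 2 without carotid knockout replicate 2 or carotid control replicate 3, and 1 with the skeletal muscle covariate.

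Genes of antibody-secreting cells rose as well. Of 17 B and plasma cell genes tested, 6 rose and none fell, with a median of 1.85. Jchain, which joins secreted immunoglobulin units, stood at 45.8, 50.6 and 20.1 CPM in femoral knockouts against 2.44, 5.61 and 1.73 CPM in femoral controls, and at 27.7 and 18.4 CPM in carotid knockouts against 2.29, 1.91 and 1.15 CPM in carotid controls. These libraries were apart in both vessels, with a rise of 3.63 ± 0.34, or 12.4-fold (edgeR adjusted p 0.000174). The constant chains Igkc and Igha rose by 3.12 and 3.49. Mzb1, an antibody-folding chaperone, rose by 2.96, and Pou2af1, a transcriptional coactivator of B cells, by 3.16. Immunoglobulin and T cell receptor segments and constant regions gave 74 rises and no fall among 171 tested, or 43.3%, with a median of 3.27. Many of these segments resemble each other closely, so single segments are uncertain. The filter on low counts needed no more libraries than the smallest group holds, so a segment could enter through knockout libraries alone. The share and median are therefore not independent of high levels in the knockouts. The B cell markers Ms4a1, Cd79a and Cr2, named after their values were seen, were not called. Ms4a1, which encodes CD20, stood at 1.29, 0.496 and 0.539 CPM in femoral knockouts against 1.15, 0.630 and 0.147 CPM in femoral controls. In the carotid artery it was 1.34 and 5.79 CPM in knockouts against 0.0776, 0.341 and 0.146 CPM in controls, and its common change of 2.06 was not called (edgeR adjusted p 0.190). Ms4a1, the receptor chain Cd79a and the follicular receptor Cr2 were all highest in carotid knockout replicate 2, and Cr2 reached 2.25 CPM there against 0.346 CPM or less in each other library. Without that library the list median was 1.21 and 5 members rose. The list count reached 10 without femoral knockout replicate 3.

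Genes induced by interferons rose in part. Of 31 interferon-stimulated genes 10 rose and none fell, with a median of 0.72. Ifit2, which binds foreign RNA, stood at 49.9, 33.1 and 31.5 CPM in femoral knockouts against 26.4, 30.9 and 20.8 CPM in femoral controls, and at 55.9 and 64.5 CPM in carotid knockouts against 30.7, 28.5 and 25 CPM in carotid controls. The groups were apart in both vessels, and Ifit2 rose by 0.80 ± 0.16 (edgeR adjusted p 0.0154). Irf8, a transcription factor of myeloid and lymphoid cells, rose by 0.83. Both held in all 11 omissions. The signal transducer Stat2 rose by 0.60 and the RNA sensor Ifih1 by 0.59, and both calls were lost without carotid knockout replicate 1, femoral knockout replicate 1 or 2, femoral control replicate 2 or 3, or carotid control replicate 2 or 3. The list count was 2 without carotid knockout replicate 1, 3 without femoral knockout replicate 1, femoral control replicate 2 or 3 or carotid control replicate 3, and 4 without femoral knockout replicate 2 or carotid control replicate 2. It was 2 with the skeletal muscle covariate.

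The guanylate-binding proteins and related GTPases, which attack vacuoles that hold pathogens, all had positive changes. Of 18 members 10 rose, with a median of 1.01. Gbp5 stood at 87.6, 105 and 46.1 CPM in femoral knockouts against 34.9, 22.3 and 17.4 CPM in femoral controls, and at 42.3 and 26.5 CPM in carotid knockouts against 12.6, 16.2 and 10.9 CPM in carotid controls. The libraries did not overlap, and the rise was 1.54 ± 0.24 (edgeR adjusted p 0.00473). Gbp4 rose by 1.52. Gbp2b rose by 5.58 ± 0.84, or 47.8-fold, with 19.1, 2.5 and 30.4 CPM in femoral knockouts, 1.55, 0.447 and 0.0184 CPM in femoral controls, 15.3 and 31.2 CPM in carotid knockouts, and 0.213, 0.284 and 0.0729 CPM in carotid controls (edgeR adjusted p 0.00417). Gbp2b has close relatives beside it, which makes its counts uncertain. The count of rises was 3 without carotid knockout replicate 1, femoral knockout replicate 1 or 2 or femoral control replicate 2, 6 without femoral control replicate 3 or carotid control replicate 3, and 4 with the skeletal muscle covariate.

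Antigen presentation genes moved the same way, with 10 of 26 up, none down and a median of 0.74. The peptide transporter Tap1 rose by 0.99 ± 0.17 and the immunoproteasome subunit Psmb9 by 0.81 ± 0.14. Psmb9 stood at 42.5, 46.9 and 33.3 CPM in femoral knockouts against 30.0, 23.6 and 18.1 CPM in femoral controls, and at 32.7 and 23.8 CPM in carotid knockouts against 16.7, 15.2 and 14.7 CPM in carotid controls. No library overlapped in either vessel (edgeR adjusted p 0.00743). The class I genes H2-Q6 and H2-Q7 rose by 0.98 each, and reads may be shared between them. By contrast, none of the 36 genes of the standing proteasome was called, with a median of −0.05. The count of presentation genes that rose was 4 without carotid knockout replicate 1, 5 without carotid control replicate 3, femoral control replicate 2 or 3, or femoral knockout replicate 1 or 2, and 6 without carotid control replicate 2. It was 15 without femoral knockout replicate 3, 17 without carotid knockout replicate 2 and 6 with the skeletal muscle covariate.

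Among chemokines and their receptors 7 of 32 rose, none fell, and all 32 changes were positive, with a median of 0.76. Ccl5, a T cell chemokine, stood at 25.9, 26.8 and 28.6 CPM in femoral knockouts against 9.77, 7.48 and 5.29 CPM in femoral controls, and at 8.12 and 11.9 CPM in carotid knockouts against 3.88, 4.69 and 2.95 CPM in carotid controls. Its libraries were apart in both vessels and its rise was 1.65 ± 0.18 (edgeR adjusted p 0.000668). Cxcr3 and Cxcr6, receptors on activated T cells, rose by 1.40 and 1.59. Cxcl12, which retains and recruits leukocytes, rose by 0.74 ± 0.13, with 1200, 1259 and 981 CPM in femoral knockouts, 718, 524 and 581 CPM in femoral controls, 824 and 711 CPM in carotid knockouts, and 521, 443 and 641 CPM in carotid controls. These 4 genes held in all 11 omissions. The list count fell to 4 without carotid knockout replicate 1, femoral knockout replicate 1 or 2, femoral control replicate 2 or 3, or carotid control replicate 3, and with the skeletal muscle covariate, and was 13 and 15 without carotid knockout replicate 2 and carotid control replicate 1.

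Of 30 interleukin, TNF and colony-stimulating factor genes 8 rose and none fell, with a median of 0.70. Tnfsf13b, the B cell survival factor BAFF, rose by 0.70 ± 0.10 (edgeR adjusted p 0.00391), at 23.7, 19 and 23.8 CPM in femoral knockouts against 16.3, 14.2 and 15.2 CPM in femoral controls, and 13.5 and 12.9 CPM in carotid knockouts against 7.88, 6.32 and 6.98 CPM in carotid controls. The groups did not overlap. The list count was 1 without carotid knockout replicate 1 and with the skeletal muscle covariate, and 2 without femoral knockout replicate 1 or 2, without carotid control replicate 2 or 3, and without any 1 of the femoral controls. It was 13 without carotid control replicate 1.

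Myeloid lists held fewer calls. Of 24 macrophage genes 2 rose and none fell, with a median of 0.48, and of 16 neutrophil genes 2 rose and none fell, with a median of 1.25. The macrophage count was 2 without femoral knockout replicate 3, 7 without carotid knockout replicate 2, 8 without carotid control replicate 1 and 0 without each other library. The neutrophil count was 6 without femoral knockout replicate 3, 8 without carotid control replicate 1, 3 without carotid knockout replicate 2 and 2 without each other library. Lcn2, which withholds iron from bacteria and is made by neutrophils and epithelia, stood at 210, 288 and 112 CPM in femoral knockouts against 75.2, 45.6 and 24 CPM in femoral controls, and at 182 and 203 CPM in carotid knockouts against 42.3, 42.6 and 13.3 CPM in carotid controls. Its libraries were apart and it rose by 2.29 ± 0.37 (edgeR adjusted p 0.00537). The chemotactic receptor Fpr2 rose by 1.92. In the phagocyte NADPH oxidase, Rac2 rose by 0.84, 1 of 2 rises among 12 genes. The other, Cybb, kept its call without femoral knockout replicate 3, carotid knockout replicate 2 or carotid control replicate 1 and lost it without each of the 8 other libraries and with the skeletal muscle covariate. The count was 4 without carotid knockout replicate 2 or carotid control replicate 1. Olr1, a receptor for oxidised lipoprotein, rose by 1.11, and Hgf, a growth factor of mesenchymal cells, by 0.75.

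**Figure D2:**
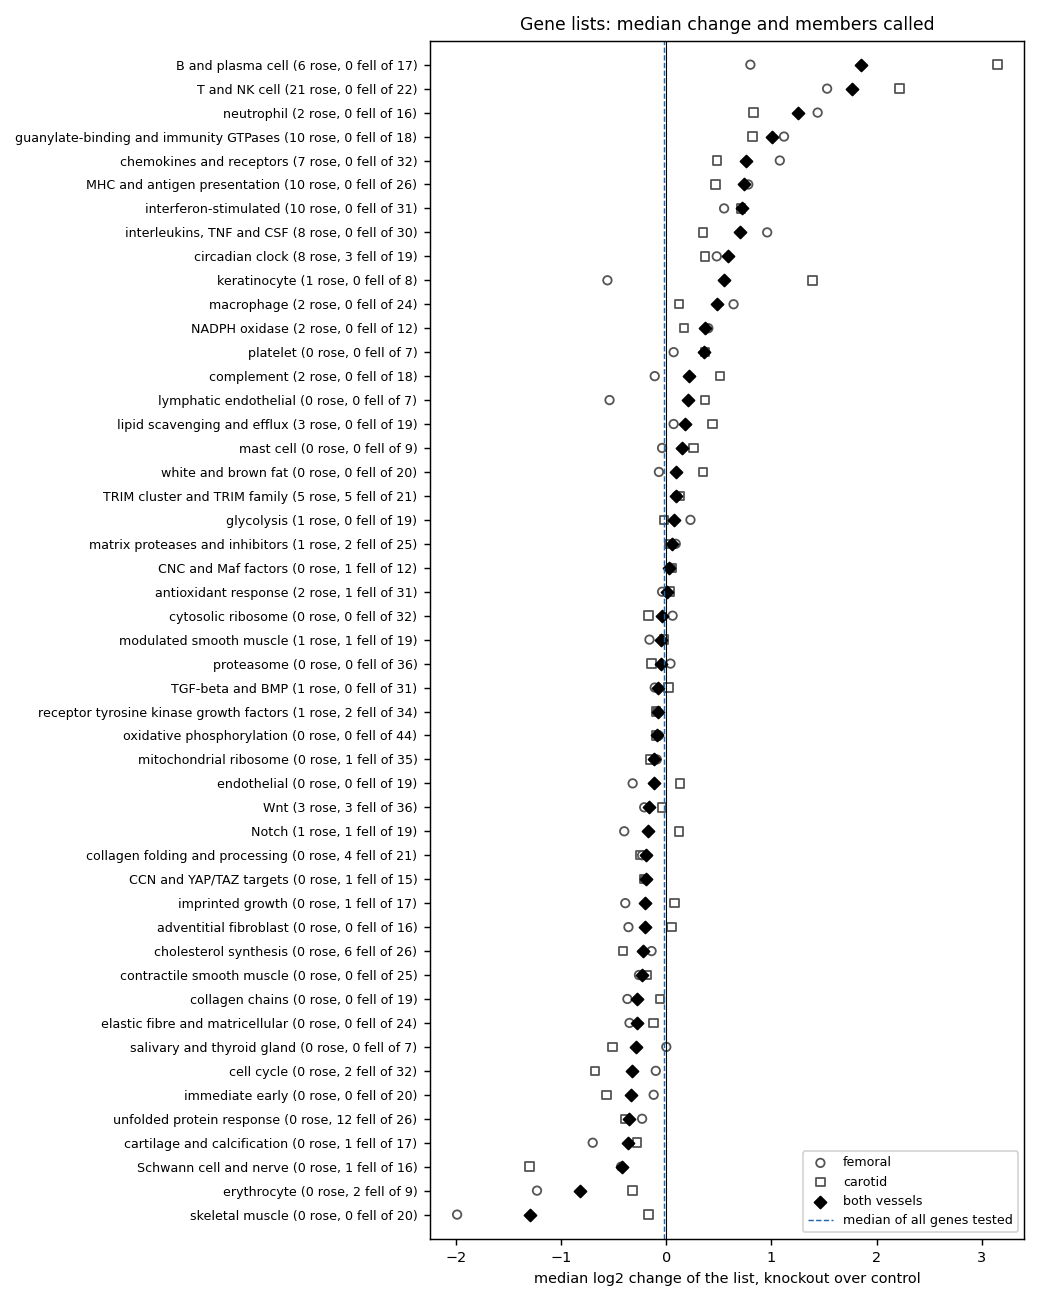
Median log2 change, knockout over control, of 49 gene lists (vertical axis) with the number of members called in each direction; black diamonds are the effect common to both vessels, open circles the femoral and open squares the carotid artery. T and NK cell genes have a median of 1.77 and skeletal muscle genes one of −1.30; the dashed line is the median of all genes tested, −0.02.

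Genes that help proteins fold in the endoplasmic reticulum were lower in the knockouts, by small amounts. Of 26 unfolded protein response genes 12 fell and none rose, with a median of −0.35. Hspa5, the chaperone BiP, stood at 914, 933 and 808 CPM in femoral knockouts against 1331, 1503 and 907 CPM in femoral controls, and at 902 and 1103 CPM in carotid knockouts against 1682, 1576 and 1451 CPM in carotid controls. One femoral control overlapped the knockouts, and Hspa5 fell by 0.56 ± 0.13, or 1.48-fold (edgeR adjusted p 0.0267). Dnajc3, a cochaperone of Hspa5, fell by 0.39 ± 0.08, at 209, 200 and 191 CPM in femoral knockouts against 254, 258 and 223 CPM in femoral controls, and 198 and 220 CPM in carotid knockouts against 325, 286 and 281 CPM in carotid controls. The disulfide isomerase Pdia6 fell by 0.37 and Manf, a secreted survival factor, by 0.57. The sensors of this response, Ern1, Atf6 and Eif2ak3, and the factors Xbp1 and Atf4 were not called. These falls depended on single libraries. No member fell without carotid knockout replicate 1, and 1 fell without femoral control replicate 2 and with the skeletal muscle covariate. The count was 3 without femoral control replicate 1 or carotid control replicate 2, 5 without carotid knockout replicate 2, carotid control replicate 3 or femoral knockout replicate 2, and 6 without femoral knockout replicate 1 or 3. Hspa5 itself was not called without carotid knockout replicate 1 (edgeR adjusted p 0.0825), femoral control replicate 1 (0.0578) or 2 (0.0736), femoral knockout replicate 1 (0.0539) or carotid control replicate 2 (0.0525). Dnajc3 was not called without carotid knockout replicate 1 (0.0596). Pdia6 and Manf were not called without carotid knockout replicate 1 or femoral control replicate 1 or 2, nor Manf without femoral knockout replicate 1.

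Many promoters of these genes hold a sequence element of this same response. The calls did not use it, but the list names genes of that response, so its share is not independent of the choice of list. The endoplasmic reticulum stress response element, which reads CCAAT, then any 9 bases, then CCACG on either strand, was in 20 of 14011 tested genes with a RefSeq promoter (0.143%), read from 250 bases before to 50 bases after the start site. Of the 12 unfolded protein response genes that fell, 11 had a promoter in the table and 7 of these held the element (63.6%), namely Hspa5, Hsp90b1, Dnajc3, Syvn1, Pdia6, Calr and Creld2. Among all 24 tested members of the list with a promoter, called or not, 8 held it (33.3%). Among all 275 genes that fell with a promoter the share was 2.55%, which is the same 7 unfolded protein response genes, and among 543 that rose it was 0. The eighth list member with the element, Canx, was not called. The 250 bases before the start site are shown for Hspa5 (GRCm38.p6, chr2:34771840-34772089, plus strand), Dnajc3 (chr14:118937682-118937931, plus strand) and Pdia6 (chr12:17266339-17266588, plus strand), with the match in capitals, because its place and spacing can be compared between them.
Hspa5: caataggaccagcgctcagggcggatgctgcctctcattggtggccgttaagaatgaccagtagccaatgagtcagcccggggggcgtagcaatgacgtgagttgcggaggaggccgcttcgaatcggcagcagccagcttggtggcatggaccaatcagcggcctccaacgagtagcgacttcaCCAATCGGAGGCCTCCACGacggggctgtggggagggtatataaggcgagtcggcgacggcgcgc
Dnajc3: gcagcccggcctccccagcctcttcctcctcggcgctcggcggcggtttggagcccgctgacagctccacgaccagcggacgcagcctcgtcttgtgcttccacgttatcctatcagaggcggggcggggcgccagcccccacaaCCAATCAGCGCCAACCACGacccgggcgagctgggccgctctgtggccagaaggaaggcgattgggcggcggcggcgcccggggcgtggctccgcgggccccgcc
Pdia6: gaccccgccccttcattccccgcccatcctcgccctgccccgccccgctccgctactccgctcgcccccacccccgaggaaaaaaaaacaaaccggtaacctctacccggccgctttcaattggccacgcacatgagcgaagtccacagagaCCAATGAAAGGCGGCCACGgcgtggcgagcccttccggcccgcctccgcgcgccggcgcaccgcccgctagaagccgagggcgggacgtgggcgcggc
The first letter of the match lies 65 bases before the start site in Hspa5, 105 in Dnajc3 and 98 in Pdia6. A match describes these letters and shows no binding.

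Chaperones of the cytosol were lower too. In a list of 22 heat shock genes, put together after their values were seen, 12 fell and none rose, with a median of −0.50. Hsph1, a nucleotide exchange factor of Hsp70, stood at 67.2, 62.4 and 88.3 CPM in femoral knockouts against 158, 188 and 113 CPM in femoral controls, and at 56.9 and 87.9 CPM in carotid knockouts against 148, 161 and 134 CPM in carotid controls. It fell by 1.05 ± 0.15 (edgeR adjusted p 0.00381), with the groups apart and the call held in all 11 omissions. The inducible Hsp70 genes Hspa1b and Hspa1a fell by 1.59 and 1.58. They are near-identical copies, and both calls were lost without carotid knockout replicate 1 (edgeR adjusted p 0.0625 and 0.0666), femoral control replicate 2 (0.0589 and 0.0664), femoral knockout replicate 1 (0.0522 and 0.0534) or femoral knockout replicate 2 (0.0536 and 0.0522). Falls in this list numbered 1 without femoral knockout replicate 1, 2 without carotid knockout replicate 1 or femoral control replicate 2, 3 without femoral knockout replicate 2, 5 without femoral control replicate 1 or carotid control replicate 2, 6 without carotid control replicate 3 and 4 with the skeletal muscle covariate. Among genes of collagen folding, 4 of 21 fell and none rose, with a median of −0.19. Of these falls 1 was left without carotid knockout replicate 1, and 2 without carotid knockout replicate 2, femoral knockout replicate 2 or femoral control replicate 2. The collagen chaperone Serpinh1 stood at 1605, 1259 and 1326 CPM in femoral knockouts against 1904, 2025 and 2030 CPM in femoral controls, and at 1759 and 1598 CPM in carotid knockouts against 2464, 2399 and 2395 CPM in carotid controls. Its libraries were apart in both vessels and it fell by 0.52 ± 0.08, or 1.43-fold (edgeR adjusted p 0.00434).

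Circadian clock genes changed in both directions, with 8 of 19 up and 3 down. Genes of the activating arm were among the falls. Arntl, which encodes BMAL1, stood at 10.7, 8.12 and 9.49 CPM in femoral knockouts against 34.1, 22.2 and 41.3 CPM in femoral controls, and at 9.23 and 11.9 CPM in carotid knockouts against 38.4, 28.9 and 37.7 CPM in carotid controls. Knockout and control levels did not overlap, and Arntl fell by 1.76 ± 0.16, or 3.39-fold (edgeR adjusted p 0.000126). Its partners Npas2 and Clock fell by 2.21 ± 0.37 and 0.40 ± 0.08. Npas2 was at 5.05, 1.04 and 3.09 CPM in femoral knockouts against 20.1, 8.03 and 23.2 CPM in femoral controls, and at 7.36 and 8.24 CPM in carotid knockouts against 25.9, 26.0 and 35.7 CPM in carotid controls. The call on Clock was lost without carotid knockout replicate 1.

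Per3, of the repressing arm, stood at 25, 26.2 and 32.6 CPM in femoral knockouts against 7.31, 16 and 10.8 CPM in femoral controls, and at 26.3 and 27.2 CPM in carotid knockouts against 6.21, 11.6 and 5.56 CPM in carotid controls. Per3 rose by 1.51 ± 0.23 (edgeR adjusted p 0.0043), and the groups did not overlap. Ciart, a repressor of BMAL1, rose by 1.64, Per2 by 0.73 and the output factor Tef by 1.17. Arntl, Npas2, Per3, Ciart and Per2 held in all 11 omissions. Dbp, another output factor, changed by 1.83 ± 0.50 and was not called (edgeR adjusted p 0.0546). Its level was 55.9, 65.4 and 75.9 CPM in femoral knockouts against 10.7, 41.5 and 11.1 CPM in femoral controls, and 102 and 57.8 CPM in carotid knockouts against 6.99, 42.3 and 7.82 CPM in carotid controls. Control replicate 2 stood above the other controls of its vessel for Dbp, Per3, Ciart and Tef in both vessels. The count of rises was 5 without carotid knockout replicate 1, femoral knockout replicate 1 or femoral control replicate 1 or 3, and 4 with the skeletal muscle covariate.

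The E-box CACGTG, to which BMAL1 and its partners bind, was in 9.31% of the 14011 promoters and in 4 of the 7 clock genes that rose and had a promoter, namely Per1, Tef, Ciart and Bhlhe41. Among all 16 tested clock genes with a promoter, called or not, 5 held it (31.2%). Over all genes with a promoter the E-box was in 8.29% of those that rose and 6.91% of those that fell. The call on Per1 was lost without any 1 of the femoral controls, femoral knockout replicate 1 or carotid knockout replicate 1. The promoter of Ciart (GRCm38.p6, chr3:95882229-95882478, minus strand, 250 bases before the start site) held 3, the nearest 44 bases from the start site, and is shown with them in capitals.
Ciart: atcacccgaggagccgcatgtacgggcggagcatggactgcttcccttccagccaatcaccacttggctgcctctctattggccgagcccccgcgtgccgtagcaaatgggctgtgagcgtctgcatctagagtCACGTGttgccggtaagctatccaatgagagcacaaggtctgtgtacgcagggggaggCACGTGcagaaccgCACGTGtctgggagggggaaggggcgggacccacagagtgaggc

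Enzymes of cholesterol synthesis were lower by small amounts, with 6 of 26 genes down, none up and a median of −0.22. Msmo1, a sterol demethylase, stood at 47.7, 57.0 and 56.4 CPM in femoral knockouts against 75.5, 73.5 and 61.5 CPM in femoral controls, and at 23 and 26.5 CPM in carotid knockouts against 41.6, 40.1 and 40.5 CPM in carotid controls. The libraries were apart and Msmo1 fell by 0.53 ± 0.09 (edgeR adjusted p 0.00839). The count was 1 without carotid knockout replicate 1, femoral knockout replicate 1 or femoral control replicate 1. It was 3 without carotid knockout replicate 2, femoral knockout replicate 2, femoral control replicate 2 or carotid control replicate 2, and 4 without carotid control replicate 3.

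**Figure D3:**
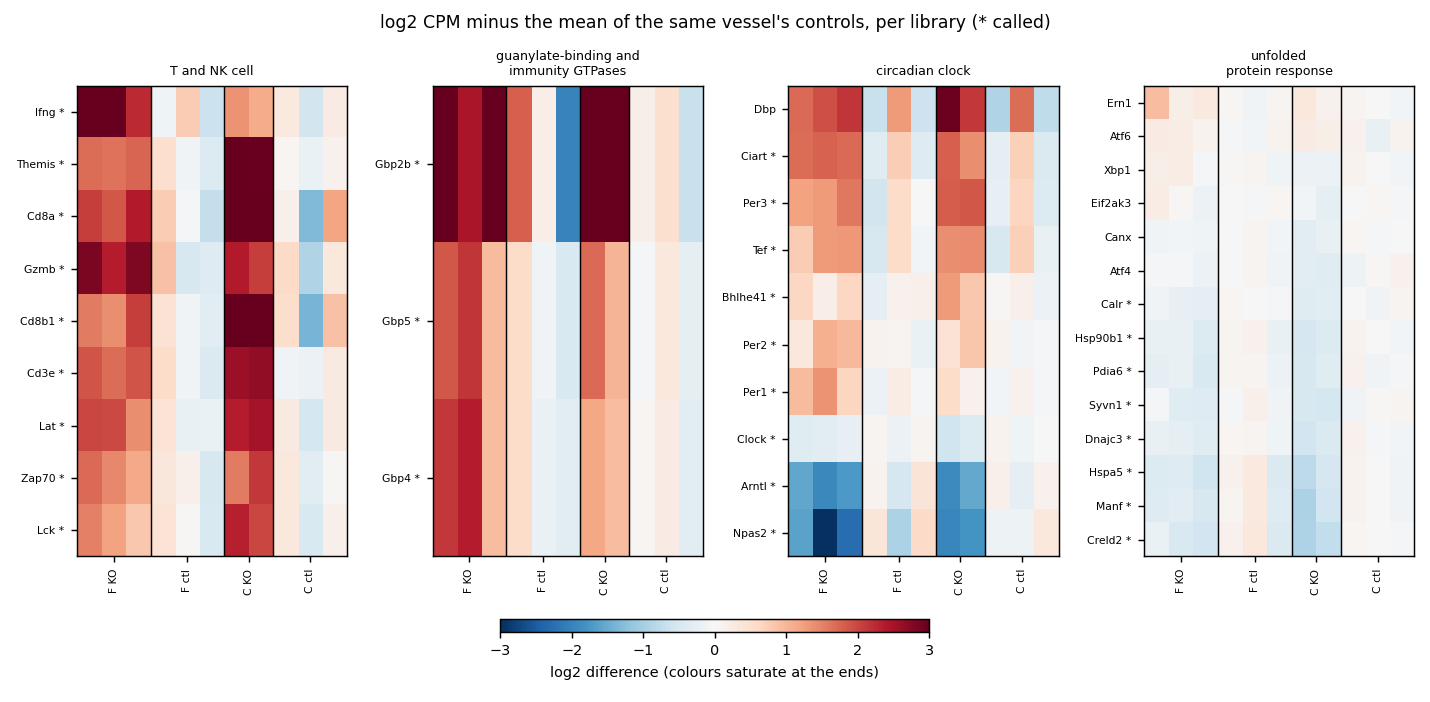
Each cell is log2 of CPM plus 0.1 in 1 library minus the mean of the control libraries of the same vessel, for the 36 genes of 4 lists that the text describes; columns run femoral knockout (F KO), femoral control (F ctl), carotid knockout (C KO), carotid control (C ctl), and an asterisk marks a call. The T and NK cell genes shown are red in both knockout blocks, Arntl and Npas2 are blue there, and many unfolded protein response genes are pale blue there; the medians over that whole list were −0.23 in the femoral and −0.39 in the carotid artery.

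The largest changes among genes of at least 5 CPM were in genes of varied function. Hal, histidine ammonia-lyase of skin and liver, stood at 14.8, 10.8 and 15.7 CPM in femoral knockouts against 0.284, 0.0203 and 0.0184 CPM in femoral controls, and at 51.1 and 25.5 CPM in carotid knockouts against 0.136, 0.0378 and 0.0182 CPM in carotid controls. Each knockout library was far above each control library, with a rise of 8.04 ± 0.56 (edgeR adjusted p 1.58e-05). The phospholipase Gdpd3 rose by 3.85 and the cation carrier Slc22a3 by 2.80. Ubd, a ubiquitin-like protein induced by interferon gamma, rose by 3.32, and Fgf23, a phosphate hormone made in bone, by 2.66. On the other side, the matrix protein Spon2 fell by 1.94 ± 0.26, at 21.4, 9.24 and 9.41 CPM in femoral knockouts against 50.5, 68.1 and 79.8 CPM in femoral controls, and 22.8 and 14.1 CPM in carotid knockouts against a mean of 51.6 ± 3.92 CPM (SD, n = 3) in carotid controls (edgeR adjusted p 0.00238). Cd209a, a lectin of dendritic cells, fell by 2.31, a call lost without carotid knockout replicate 1 (edgeR adjusted p 0.069).

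A pair of mitochondrial genes changed with little spread between libraries. Mrps12, a protein of the mitochondrial ribosome, stood at 8.67, 8.73 and 8.56 CPM in femoral knockouts against 20.8, 22.8 and 19.2 CPM in femoral controls, and at 8.49 and 8.77 CPM in carotid knockouts against 21.8, 21.4 and 22.7 CPM in carotid controls. It fell by 1.31 ± 0.07, or 2.47-fold (edgeR adjusted p 4.22e-06), and was the only call among 35 mitochondrial ribosome genes, whose median was −0.12. Nnt, which makes NADPH in mitochondria, stood at 29.5, 26.6 and 33.1 CPM in femoral knockouts against 57.8, 53.4 and 64.6 CPM in femoral controls, and at 31.5 and 30.3 CPM in carotid knockouts against 55.3, 61.4 and 61.1 CPM in carotid controls. It fell by 0.96 ± 0.07, or 1.95-fold (edgeR adjusted p 4.67e-05). None of the 44 oxidative phosphorylation genes was called, with a median of −0.09.

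Besides Nnt, which fell, 2 of the 31 antioxidant response genes were called, and both rose. Sod2, mitochondrial superoxide dismutase, rose by 0.70 ± 0.13. Fth1, the ferritin heavy chain that stores iron, stood at 2279, 2476 and 2256 CPM in femoral knockouts against 1900, 1858 and 1615 CPM in femoral controls, and at 2427 and 1997 CPM in carotid knockouts against 1558, 1829 and 1579 CPM in carotid controls. These libraries were apart and Fth1 rose by 0.40 ± 0.08 (edgeR adjusted p 0.0209), a call lost without carotid knockout replicate 1 (0.0701). The list median was 0.01, and 4 members rose without carotid control replicate 1. The core of the antioxidant response element, TGACNNNGC on either strand, was in 14.2% of all promoters, 14.0% of those of genes that rose and 18.2% of those of genes that fell.

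**Figure D4:**
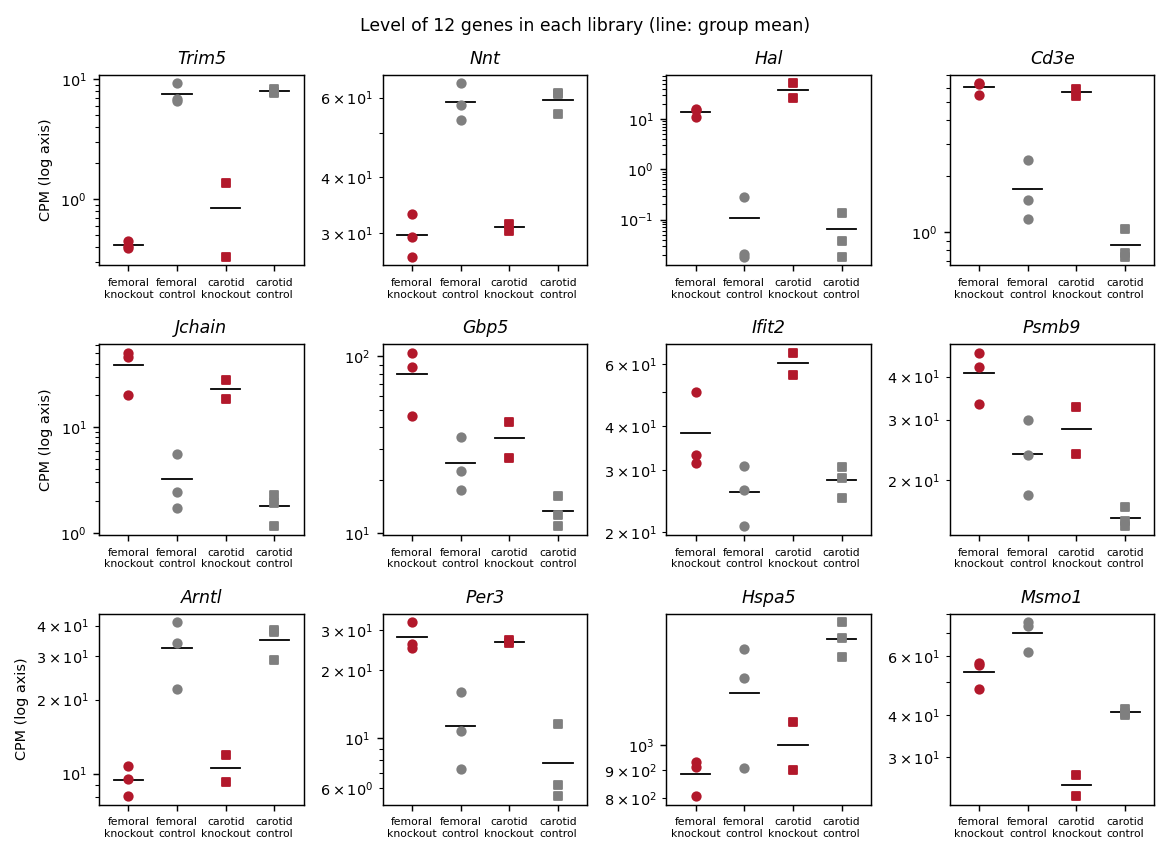
CPM on log axes for 12 genes in each of the 11 libraries, with the knockout group left of the control group of the same vessel; lines are group means. Trim5, Nnt and Arntl are lower and Hal, Cd3e and Jchain higher in every knockout library, while 1 femoral control overlaps the knockouts for Hspa5.

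Signalling genes changed singly. Among 36 Wnt pathway genes 3 rose and 3 fell, with a median of −0.16. Falls numbered 3 or 4 in each omission of a library, while no gene rose without femoral knockout replicate 1, 1 rose without carotid knockout replicate 1 or femoral control replicate 2 or 3, and 1 with the skeletal muscle covariate. The receptor Fzd8 fell by 1.15 ± 0.15 and the ligand Wnt2 by 1.41 ± 0.19, with libraries apart in both vessels. Wnt2 stood at 3.23, 2.5 and 4.0 CPM in femoral knockouts against 7.17, 7.40 and 8.67 CPM in femoral controls, and at 9.48 and 9.44 CPM in carotid knockouts against 17.4, 32.4 and 36.1 CPM in carotid controls (edgeR adjusted p 0.00239). The antagonist Dkk2 fell by 1.04. Tcf7, up by 1.40, and Lef1, up by 1.93, encode transcription factors of the pathway that T cells also use. The call on Tcf7 was lost without femoral knockout replicate 1, and that on Lef1 without femoral knockout replicate 1 or 2, femoral control replicate 2 or 3, or carotid knockout replicate 1. Of 19 Notch genes Hes1, a target of the pathway, fell by 0.57 and Lfng, which modifies the receptor, rose by 0.56. The call on Lfng was lost without any 1 of the femoral controls, femoral knockout replicate 1 or 2, carotid control replicate 3 or carotid knockout replicate 1.

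Genes that define the arterial wall gave few calls. None of 25 contractile smooth muscle genes was called, and 22 of the 25 changes were negative, with a median of −0.23. None was called among 19 collagen chains (median −0.28), 24 elastic fibre and matricellular genes (median −0.28), 19 endothelial genes (median −0.12) or 16 adventitial fibroblast genes (median −0.20). Eln, elastin, stood at 5141, 5197 and 5707 CPM in femoral knockouts against 6883, 9894 and 10583 CPM in femoral controls, and at 7416 and 7593 CPM in carotid knockouts against 10930, 11468 and 6729 CPM in carotid controls. One carotid control overlapped, and its change of −0.59 ± 0.16 was not called (edgeR adjusted p 0.0543). Tnfrsf11b, which encodes osteoprotegerin, fell by 0.97 ± 0.18, the plasminogen activator Plat by 0.76 ± 0.14 and the cartilage proteoglycan Acan by 1.20 ± 0.25, the last lost without carotid knockout replicate 1. Of 32 cell cycle genes, 30 had negative changes. The 2 called, both falls, were the cyclin Ccna2 and Cdkn1a, which encodes an inhibitor of the cell cycle. The list's median was −0.33 in both vessels together, −0.10 in the femoral artery and −0.68 in the carotid artery. None was called without carotid knockout replicate 1, femoral knockout replicate 2, femoral control replicate 3 or carotid control replicate 2, or with the skeletal muscle covariate. The count was 1 without carotid knockout replicate 2, femoral knockout replicate 1, femoral control replicate 2 or carotid control replicate 3, and 6 without carotid control replicate 1. Erythrocyte genes had a median of −0.82, with 2 of 9 called, and summed to 1766 to 3012 CPM in femoral knockouts, 2757 to 8253 CPM in femoral controls, 1471 to 1761 CPM in carotid knockouts and 1526 to 2773 CPM in carotid controls. Both erythrocyte calls were kept without femoral control replicate 3 or carotid control replicate 1, 1 was left without carotid knockout replicate 2, and none without each of the 8 other libraries, in limma-voom or with the skeletal muscle covariate. Krt5, a keratin of skin, was called on 14.0 CPM in carotid knockout replicate 2 against 0.233 CPM or less in each other library (edgeR adjusted p 0.0442, and 0.888 without it), and the call was lost in 8 of the 11 omissions. The part of these tissues in the other results was not tested.

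Values in single vessels come from the same libraries as the common effect. In the femoral artery 393 genes rose (1.84%) and 142 fell (0.665%), 2.51% in all, and in the carotid artery 141 rose (0.661%) and 56 fell (0.262%), 0.923% in all, by edgeR's quasi-likelihood test in a fit with 4 group means. With same-numbered femoral samples as pairs the femoral calls were 1224 in all, against 535. Femoral calls numbered 99, 82 and 1317 without femoral knockout replicates 1, 2 and 3, taken singly, and 182, 78 and 85 without femoral control replicates 1, 2 and 3. Carotid calls, 197 in all, numbered 76 and 128 without carotid knockout replicates 1 and 2, 60 without carotid control replicate 3 and 130 without femoral knockout replicate 2. Femoral and carotid comparisons share no library. Across the 21343 genes, which are not independent replicates, their log2 changes had a Pearson r of 0.46 and a Spearman rho of 0.294. Over the 12098 genes of at least 5 CPM these were 0.535 and 0.389. Genes that rose in the femoral artery had a median log2 change of 0.567 in the carotid artery, against 1.315 in their own, and genes that rose in the carotid artery one of 1.745 in the femoral artery, against 2.803 in their own. For falls, the femoral set had −0.331 in the carotid artery against −1.054, and the carotid set −0.386 in the femoral artery against −0.894.

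The difference between the vessels' effects was called for 1 gene of the 21343 (0.00469%), Jag2, a ligand of Notch receptors. It stood at 25.9 and 26.7 CPM in carotid knockouts against 13.6, 12.1 and 14.6 CPM in carotid controls, and at 23.6, 27.6 and 28.4 CPM in femoral knockouts against 56.3, 70.8 and 45.5 CPM in femoral controls. Its libraries were apart in both vessels, in opposite directions, with log2 changes of 0.97 in the carotid and −1.12 in the femoral artery. The carotid minus the femoral change was 2.09 (edgeR adjusted p 0.0394), and the common change was −0.17 and not called (edgeR adjusted p 0.816). The difference was no longer called without any 1 of 9 libraries, that is, all but femoral control replicates 2 and 3. Without adjustment 1815 genes had p under 0.05 for this difference. Arg1, arginase of wound macrophages, named after its values were seen, stood at 130, 91.4 and 46.2 CPM in femoral knockouts against 7.10, 6.73 and 6.07 CPM in femoral controls, and at 36.1 and 63.7 CPM in carotid knockouts against 88.3, 28.4 and 34.7 CPM in carotid controls. Its libraries overlapped in the carotid artery, and its common change of 2.24 ± 0.77 was not called (edgeR adjusted p 0.111).

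**Figure D5:**
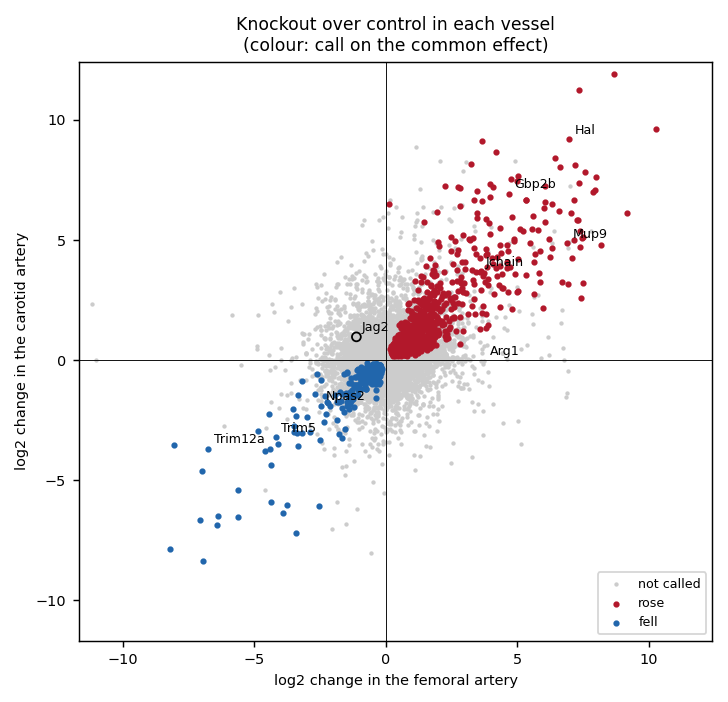
Log2 change of knockout over control in the carotid artery (vertical axis) against the femoral artery (horizontal axis), 1 point per gene, coloured by the call on the common effect. Most of the 864 rises lie in the upper right and most of the 388 falls in the lower left; Jag2, circled, lies at 0.97 in the carotid and −1.12 in the femoral artery, and Arg1 is grey because its common effect was not called; its carotid change was −0.02.

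The share of genes called varied between parts of the genome, beside 5.87% over all genes tested. No test of position was run. By chromosome the share called was highest among the autosomes on chromosome 17 (8.93%) and chromosome 6 (8.67%), the chromosome of Nfe2l3, and lowest on chromosome 9 (3.69%). Many of the calls on chromosome 6, 91 rises and 18 falls, were immune receptor segments or constant regions. Its windows at 65 to 70, 70 to 75 and 40 to 45 Mb held 23, 12 and 10 called ones. Within 5 Mb of Nfe2l3, 8 of 112 genes rose and 2 fell (8.93%), with Gimap3, Gimap4, Gimap7, Gimap8 and Gimap1os among the rises. Windows of 5 Mb (GRCm38) with at least 5 called genes were ranked by share. Immunoglobulin kappa segments led, with 26 of 64 genes called between 65 and 70 Mb of chromosome 6 (40.6%). The next window held no such segment: between 115 and 120 Mb of chromosome 13, 8 of 21 genes were called (38.1%), 1 up and 7 down, among them Nnt, Zfp131 and Paip1. Between 60 and 65 Mb of chromosome 4, 11 of 46 were called (23.9%). They include the major urinary protein genes Mup9, Mup5 and Mup11 and the plasma protein gene Orm2, which have close paralogs and uncertain counts. Mup9 stood at 22.5, 35.3 and 48.4 CPM in femoral knockouts against 0.0757, 0.427 and 0.386 CPM in femoral controls, while Mup11 stood at 0.423, 0.496 and 0.891 CPM in femoral knockouts against 7.0, 9.33 and 8.47 CPM in femoral controls. Between 100 and 105 Mb of chromosome 7, which holds the Trim genes, 17 of 82 were called (20.7%). The part of genetic background of the Nrf3-/- and flox mice in these windows was not tested. On chromosome Y 2 of 11 genes rose and 1 fell (27.3%). Between 100 and 105 Mb of chromosome X 5 of 48 genes rose and none fell (10.4%), with Xist among the rises. A difference in sex between the groups was not tested. Among changes of 3 or more on the log2 scale, 63 were immune receptor segments, all rises. Such segments could pass the filter through knockout libraries alone. A further 63 were protein-coding genes, with 43 rises and 20 falls, and 32 were pseudogenes, with 31 rises and 1 fall. The smallest p of all belonged to the transcribed pseudogene Atp6v0c-ps2, at 43.2, 49.2 and 39.6 CPM in femoral knockouts against 6.0, 6.22 and 5.07 CPM in femoral controls, and 48.8 and 46.9 CPM in carotid knockouts against 8.33, 5.73 and 6.14 CPM in carotid controls. It rose by 2.89 ± 0.11 (edgeR adjusted p 2.51e-07). Of 1001 pseudogenes tested 60 rose and 8 fell (6.79%), close to the 6.47% of protein-coding genes. Reads may be divided between a pseudogene and its parent gene.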

How the data were processed

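Polyadenylated RNA from 11 injured mouse arteries was sequenced, and the deposited table holds raw counts per gene, with no other sample columns. Per the submitters' processing notes, which give no versions or roles, the tools were HISAT2, HTSeq, edgeR, DESeq and DESeq2, and the strand setting is not given in the sources used here. These notes name mm9, but 99.8% of 39064 genes joined by NCBI gene ID overlap their GRCm38 position (72.0% share its start), so positions are given as GRCm38. Symbols turned into dates (27) were restored from gene IDs. Gene length, as other values in the deposited table, was not used in a test.

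The common effect was fitted here to the counts with edgeR 4.0.16 (R 4.3.3), with genotype and vessel as terms, TMM scaling (factors 0.963 to 1.03), filterByExpr (21343 genes, 43.6%), 8 residual degrees of freedom and a common biological coefficient of variation of 26.5%. Two-sided p-values were adjusted by Benjamini-Hochberg and called below 0.05. The SE was taken as the size of the log2 change over the root of F. Effects in each vessel and their difference came from a fit with 4 group means. DESeq2 1.42.0, limma 3.58.1, other filters, scaling, covariates, replicate blocks and the omission of each library were alternatives. Tables and figures used Python 3.11.15, pandas 2.3.3 and matplotlib 3.10.9. The fit was also run on simulated counts drawn as independent libraries, which cannot tell of shared animals, batches or muscle content. A list's median and calls stand beside those of all genes; lists had no test of their own. Totals were 43698644 to 55998563 counts per library, so counting error matters mainly for genes of few counts.

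Genes were named by a rule: Nfe2l3 and Trim5; the 10 largest rises and 10 largest falls among calls with at least 5 CPM in the higher genotype in each vessel and no overlap; the 6 smallest p; the 6 highest levels; up to 5 genes per direction that differ between vessels; and up to 4 called members per list, or the 1 of smallest p. Predicted genes, pseudogenes and segments were left out of the ranked parts, and some genes that the rule chose are not reported here. Further list members, and arterial, muscle and B cell markers, were named after their values were seen. The comparison, the 49 lists, 2 added lists and the rule were chosen with earlier results of these data known. Promoters are RefSeq's of GRCm38.p6. Replicate numbers were checked by correlating deviations from group means: same-numbered femoral samples gave r of 0.17, 0.18 and 0.12, other femoral pairs −0.18 to 0.011. Same-numbered femoral samples thus met a rule of r over 0.1. Deviations within a group offset each other, so these values are not independent, and carotid samples of different numbers also reached 0.15.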

Additional observations from a re-analysis of the deposited data

Results flagged for a closer look

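Jag2 is listed because the knockout effect differed between the vessels by a test of the difference itself. Its carotid change minus its femoral change was 2.09 on the log2 scale (edgeR, Benjamini-Hochberg adjusted p 0.0394), the only gene called among 21343. The call was kept without femoral control replicate 2 or 3 and lost without each of the 9 other libraries, at adjusted p of 0.069 to 0.185. It was also lost in limma-voom (0.0898), with the skeletal muscle covariate (0.0643) and with replicate number as a block (0.0569 or 0.0866). The difference kept its sign throughout. Groups of 2 or 3 libraries are too small for a test of single outlying libraries.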

How the results depend on the processing

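Counts of calls depended on the setting more than directions did: no gene chosen by the naming rule reversed under any alternative run. Of 108 such genes called across both vessels, 107 were called in DESeq2, 103 in limma-voom, 87 and 86 with replicate number as a block, 73 with the skeletal muscle covariate, 71 without a vessel term and 65 to 104 with 1 library left out. DESeq2 called 1611 rises and 876 falls, 171 genes that differ between vessels, 1834 in the femoral and 990 in the carotid artery. Its list counts were 16 chemokine, 13 interleukin, 17 interferon-stimulated, 16 GTPase, 20 antigen presentation and 14 B and plasma cell rises. With the skeletal muscle covariate 415 rose, 168 fell, 0 differed between vessels and 126 were called in the femoral artery. List counts were then 4 chemokine, 1 interleukin, 2 interferon-stimulated, 4 GTPase, 6 antigen presentation, 4 clock and 3 TRIM rises and 1 unfolded protein response fall; the cause was not tested. Without a vessel term 553 rose and 187 fell, with 4 chemokine, 4 interleukin, 3 interferon-stimulated and 5 antigen presentation rises, 0 cholesterol and 6 unfolded protein response falls. With no filter on low counts 17 genes differed between vessels and 1121 and 444 were called in the femoral and carotid artery, with 13 chemokine and 16 antigen presentation rises. limma-voom called 0 vessel differences and 11 chemokine rises. Protein-coding genes alone gave 131 carotid calls and 3 B and plasma cell rises, against 168 and 4 without receptor segments alone, and the mean of both vessels' effects gave 11 B and plasma cell rises.

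Within the carotid artery the numbers did not pair samples by the rule of r over 0.1: same-numbered samples had r of −0.12 and −0.15. Carotid samples of different title numbers had −0.025 to 0.15, so values over 0.1 also arose without a shared number. Deviations of the 2 carotid knockouts from their mean mirror each other, so these values cannot settle pairing there. Across vessels, same-numbered knockouts had r of 0.13 and 0.1, and same-numbered controls 0.11, −0.043 and 0.14. Samples of other numbers had −0.15 to 0.029. Whether a number marks a shared animal or batch was not tested. As a replicate block, the number in the title gave 675 rises and 259 falls, and with it 9 genes differed between vessels, 1224 femoral and 78 carotid genes were called, and 1 cholesterol gene fell, 7 unfolded protein response genes fell and 5 clock genes rose. The number in the column name as a replicate block gave 796 rises, 240 falls, 3 vessel differences and 1261 femoral calls. Under it 11 chemokine and 16 interferon-stimulated genes rose and 1 cholesterol and 5 unfolded protein response genes fell. Allowing same-numbered samples of the vessels to correlate (0.027) gave 804 rises and 369 falls.

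With 1 library left out, rises ran from 387 to 1208, falls from 144 to 513, vessel differences from 0 to 3, femoral calls from 78 to 1317 and carotid calls from 60 to 233. Rises in lists ran from 4 to 15 for chemokines, 1 to 13 for interleukins, 2 to 11 for interferon-stimulated genes, 3 to 14 for GTPases, 4 to 17 for antigen presentation, 16 to 21 for T and NK cells, 5 to 10 for B and plasma cells, 5 to 9 for the clock and 3 to 5 for TRIM genes. Falls ran from 1 to 9 for cholesterol synthesis, 0 to 11 for the unfolded protein response and 4 to 6 for TRIM genes. Leaving out 1 carotid knockout leaves a lone sample, assumed to vary like the other groups. Other scaling (869 rises and 380 falls) and a filter of at least 1 CPM in 5 libraries (723 and 367) kept every count within 1.5 times, and so did leaving out receptor segments, an alternative chosen after the data were seen. Depth limits low genes: 3 counts, the number a count of 0 allows, is under 0.1 CPM here.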
